A study of Mus musculus with 24 samples.

Results

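Vibrissa follicles, the whisker follicles of the mouse, were isolated from B6C3F1 hybrid mice on postnatal day 9 and cultured for 24 h in RPMI medium with fetal bovine serum. The comparison described here is that of follicles given panthenyl ethyl ether (PEE, 0.3%), pyridoxine hydrochloride (PH, 0.015%) and tocopherol acetate (TA, 0.024%) together against follicles given PEE and TA at the same doses without PH, so that both groups carried PEE and TA and PH was the added compound. It rests on 6 of the 24 one-colour Agilent arrays, the 3 labelled PEE-PH-TA and the 3 labelled PEE-TA. The other arrays, also 3 per group, are the untreated control and PH, PEE, TA, PEE-PH and PH-TA at those doses. They served to measure the effect of PH in 3 other backgrounds: PH against control, PEE-PH against PEE, and PH-TA against TA. Each sample was RNA from 10 follicles in 1 of 3 independent experiments, and follicles were whole cultured organs, so that every value is a mean over many cell types.

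Pyridoxine is the alcohol form of vitamin B6. Cells take it up, phosphorylate it with pyridoxal kinase and convert it to pyridoxal phosphate, the cofactor of transaminases, decarboxylases and the first enzyme of erythroid haem synthesis. Panthenyl ethyl ether is a precursor of pantothenate, the vitamin from which coenzyme A is made, and tocopherol acetate is an ester of vitamin E, a lipid-soluble antioxidant. In the anagen follicle, dividing matrix cells around the dermal papilla give rise to the hair shaft and the inner root sheath, and vibrissa follicles also lie among vessels, nerves, a collagen capsule and skeletal muscle.

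Values are log2 signal minus the 75th percentile of log2 signal on the same array. Differences are log2, with the standard error after ± and limma p-values adjusted over 22065 genes or transcripts. The 75th percentile signal ran from 177 to 200 on the PEE-TA arrays and from 175 to 187 on the PEE-PH-TA arrays, and 58.3 to 59.6% of spots were well above background. Arrays of one group correlated across genes at 0.9925 to 0.9947, and arrays of the 2 groups at 0.9908 to 0.9947. Genes are not independent replicates, and the number of arrays limits the precision. All 16 measured hair shaft keratins and 16 inner root sheath markers were well above background on all 6 arrays. So were all 13 outer sheath and epidermal keratins, 23 dermal papilla markers and 17 blood endothelium markers. Measured genes had passed a filter on signal above background, so these counts do not test the tissue label.

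Few genes passed the test when PH was added to PEE-TA. By limma 53 of 22065 passed an adjusted p of 0.05, which is 0.24% of those tested. Of these 38 were higher (0.172%) and 15 lower (0.068%), 4 and 1 of them at least 2-fold. The membrane raft protein Mal and the oxidoreductase-like gene Gfod1 rose, together with the matricellular proteins Ccn1 and Ccn2. The retinol carrier Rbp7, the lipase inhibitor G0s2 and the muscle genes Myh3, Chrng and Mamstr fell. At an unadjusted p under 0.05 there were 2956 genes (13.4%), and for 3429 (15.5%) the arrays of the 2 groups did not overlap, 10.2% of genes being separate and higher and 5.36% separate and lower. The split of 38 higher and 15 lower became 27 and 17 with normexp background, and the authors' deposited values gave 13 and 9. Without PEE-TA replicates 1, 2 and 3 the total was 284, 3 and 5, and without PEE-PH-TA replicates 1, 2 and 3 it was 6, 27 and 16. The direction of all 53 was the same in each of these 8 fits. The fit pooled the spread of all 24 arrays, and with only the 6 compared 0 genes passed and 2045 had an unadjusted p under 0.05.

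**Figure D1:**
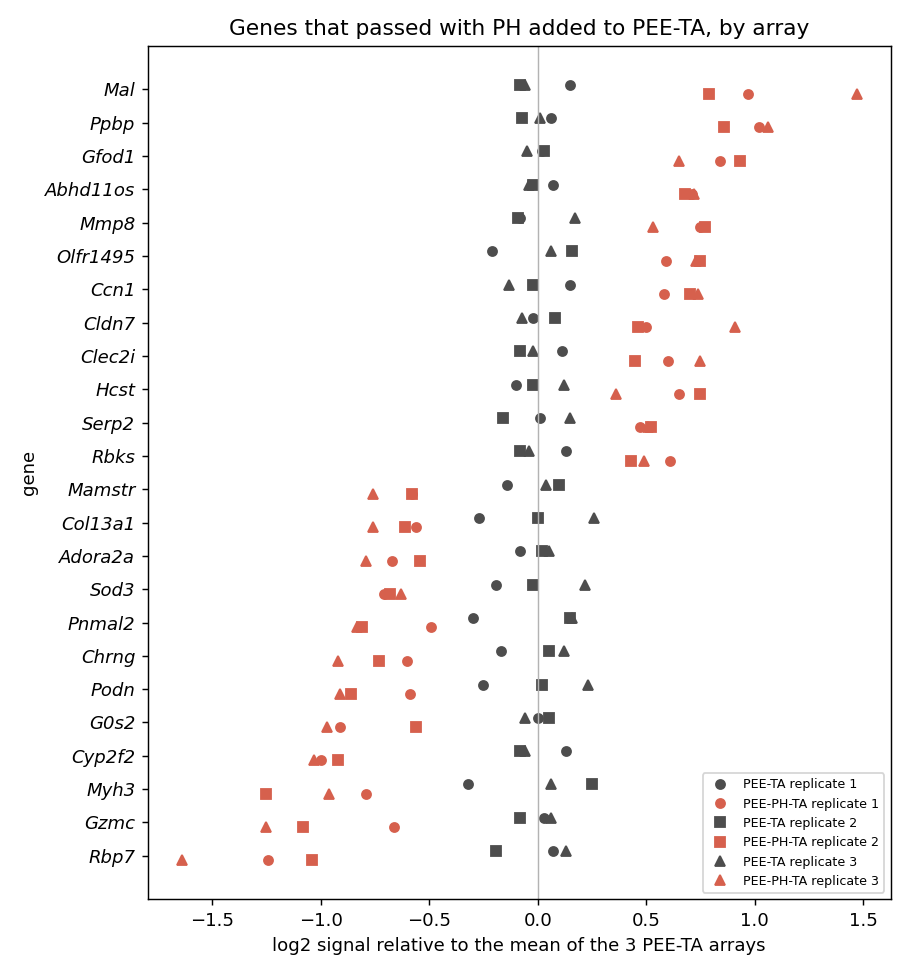
Log2 signal of each array relative to the mean of the 3 PEE-TA arrays (x axis) for the 12 named genes with the largest rise and the 12 with the largest fall (y axis). Grey symbols are PEE-TA and red symbols PEE-PH-TA arrays, with a shape for each replicate number; in none of the 24 genes do the groups overlap.

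Ccn1 (also Cyr61) and Ccn2 (also Ctgf) are secreted matrix proteins of one family and textbook targets of the coactivator YAP, which binds DNA through TEAD factors. The bases before the start of Ccn1 are shown because it is such a target, and those of Mal because it had the largest rise among named genes. The motif searched was GGAATG, a core of the TEAD site, on both strands, in the 250 bases before the start in RefSeq (GRCm38.p6). It is in capitals, and where the other strand carries it the capitals read as its complement. The Ccn1 window is chr3:145649986-145650235 on the minus strand and the Mal window chr2:127656696-127656945 on the minus strand.
Ccn1: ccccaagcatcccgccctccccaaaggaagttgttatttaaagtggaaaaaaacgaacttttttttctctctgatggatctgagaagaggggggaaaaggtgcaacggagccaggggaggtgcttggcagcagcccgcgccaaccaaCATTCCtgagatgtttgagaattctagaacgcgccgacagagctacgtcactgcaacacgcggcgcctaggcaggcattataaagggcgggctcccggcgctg
Mal: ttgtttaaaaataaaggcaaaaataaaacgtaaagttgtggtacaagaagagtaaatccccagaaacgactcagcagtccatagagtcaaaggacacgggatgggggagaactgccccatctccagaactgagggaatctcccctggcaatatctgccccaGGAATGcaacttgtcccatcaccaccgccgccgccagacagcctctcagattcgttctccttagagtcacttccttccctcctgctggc
Each window held 1 match, 103 bases before the start of Ccn1 and 89 before that of Mal. Among 32851 RefSeq promoters 12.6% held the motif in the same window, so a match is common, and it is a description of letters. The genes were chosen for the search after their values were seen.

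Ccn1 was 1.96, 1.79 and 1.68 on the PEE-TA arrays and 2.39, 2.51 and 2.55 on the PEE-PH-TA arrays. All 3 arrays with PH were higher than all 3 without it, by 0.68 ± 0.11 (limma, adjusted p = 0.0141). Ccn2 was 2.80, 2.73 and 2.82 without PH and 3.25, 3.13 and 3.38 with it, a rise of 0.47 ± 0.08 (limma, adjusted p = 0.0196). Ccn2 stood just outside the 12 largest rises and is named for its family, after its values were seen. Without PEE-TA replicates 2 and 3 and PEE-PH-TA replicate 3 the Ccn1 call ended, with an adjusted p of up to 0.0995. For Ccn2 the same 3 arrays and PEE-PH-TA replicate 1 ended it, with up to 0.127.

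Mal encodes a raft protein of apical transport in epithelia. Its probe lies at chr2:127458976-127459035 (mm9). It was -0.96, -1.19 and -1.17 without PH and -0.14, -0.32 and 0.36 with it. The groups were separate, with PEE-PH-TA replicate 3 highest, and the rise was 1.07 ± 0.13 (limma, adjusted p = 0.00398). Gfod1 was -2.84, -2.83 and -2.91 without PH and -2.02, -1.93 and -2.21 with it, a rise of 0.81 ± 0.11 (limma, adjusted p = 0.00399). Gfod1 has more than 1 probe, and on the mean of its probes the rise was 0.54 and did not pass, while normexp background gave 0.34. Among the 12 largest rises these 2 kept their call without each of the 6 arrays in turn. The tight junction gene Cldn7 rose by 0.63 ± 0.11, from -1.55, -1.45 and -1.60 to -1.03, -1.07 and -0.62, and PEE-PH-TA replicate 3 was again highest (limma, adjusted p = 0.0275). With normexp background the rise of Cldn7 was 0.40.

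Risers known from immune cells were the platelet chemokine Ppbp (0.98 ± 0.20, limma, adjusted p = 0.0458), the neutrophil collagenase Mmp8 (0.68 ± 0.13, 0.0392), the lectin Clec2i (0.60 ± 0.12, 0.0494) and Hcst (0.59 ± 0.12, 0.0458), the signalling adaptor of the receptor NKG2D. Ppbp was -2.43, -2.56 and -2.48 without PH and -1.47, -1.63 and -1.43 with it. Mmp8 was -2.85, -2.86 and -2.60 against -2.02, -2.0 and -2.24. Both genes were higher on every array with PH, though with normexp background the rises were 0.50 and 0.28 and did not pass. Clec2i and Hcst gave 0.13 and 0.30 with normexp. Ppbp was the one member called among 29 chemokines (median 0.11, 19 higher and 10 lower, -0.03 without replicate 2), and Mmp8 among 22 matrix metalloproteinases and inhibitors (median -0.17, 7 higher and 15 lower). Of all 22065 genes 13326 were higher and 8739 lower. Of 22 macrophage markers 0 passed, with a median of -0.05, and their summed level was 72.8 to 79.7 without PH and 71.8 to 87.3 with it, in multiples of the 75th percentile signal. The granzyme Gzmc, also known from immune cells, went the other way (-1.0 ± 0.20, limma, adjusted p = 0.0458). The part of immune cells in these changes was not tested.

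The remaining genes among the 12 largest rises were Abhd11os, the opposite-strand transcript of Abhd11 (0.71 ± 0.13), the olfactory receptor Olfr1495 (0.68 ± 0.14), the ribokinase Rbks (0.50 ± 0.09) and the endoplasmic reticulum gene Serp2 (0.50 ± 0.09). Their adjusted p-values ran from 0.0221 for Rbks to 0.0458 for Olfr1495. With normexp background Abhd11os gave 0.35 and Olfr1495 0.26. Calls of 10 of the 12 ended without at least 1 array. Without PEE-TA replicate 2 or without PEE-TA replicate 3 only Mal and Gfod1 passed (adjusted p up to 0.227 and 0.15), and without PEE-TA replicate 1 10 of 12 passed. Without PEE-PH-TA replicates 1, 2 and 3 there were 3, 5 and 3.

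Rbp7, an intracellular retinol-binding protein, had the largest fall. Its probe lies at chr4:148823870-148823929 (mm9). It was 0.71, 0.45 and 0.77 without PH and -0.60, -0.40 and -1.0 with it, a difference of -1.31 ± 0.23 (limma, adjusted p = 0.0258). G0s2, the inhibitor of adipose triglyceride lipase, was -0.49, -0.44 and -0.55 against -1.40, -1.05 and -1.46, with a difference of -0.81 ± 0.12 (limma, adjusted p = 0.00983). In both every array with PH lay below every array without it. The exchange factor Mcf2l (-0.43 ± 0.07, 0.0172) and the stress transcription factor Atf5 (-0.28 ± 0.05, 0.0301) fell too, by smaller amounts. These last 2 were not among the 12 largest falls; Mcf2l was named after its values were seen, and Atf5 was the one of 26 genes of the ATF4 stress response list to pass (median -0.10, 20 lower).

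PH was also added to control, PEE and TA, on arrays that the comparison of PEE-PH-TA with PEE-TA does not use. Rbp7, G0s2, Mcf2l and Atf5 are grouped because they are the 4 genes that passed as lower in all 4 backgrounds. Their fall in each background is set by that choice and is no separate support. Of the 12 largest falls, 2 passed as lower in each of control, PEE and TA. In PEE 5 of the 12 passed as higher, and in control and TA 0 did. Rbp7 differed by -2.10 in control (limma, adjusted p = 0.000223), -2.53 in PEE (2.19e-06) and -1.95 in TA (0.000808). Its fall in PEE-TA was smaller than that in PEE by 1.22 ± 0.33 (0.0114), and the differences from control (0.178) and TA (0.265) did not pass. G0s2 differed by -0.67 (0.00411), -0.57 (0.00145) and -0.69 (0.00718). Mcf2l differed by -0.44, -0.48 and -0.41 and Atf5 by -0.34, -0.55 and -0.33. For G0s2 and Mcf2l no difference between backgrounds passed (lowest adjusted p 0.313), and Atf5 fell less in PEE-TA than in PEE (0.0118). The mitochondrial thioredoxin reductase Txnrd2, named after its values were seen, is 1 of the 2 genes that passed as higher in all 4 backgrounds. It rose by 0.20 in control, 0.31 in PEE, 0.31 in TA and 0.32 ± 0.06 in PEE-TA (0.0275). Its other probes gave 0.27 ± 0.08 and 0.06 ± 0.16 in PEE-TA and did not pass (limma over probes, adjusted p 0.155 and 0.908). The PEE-TA call of all 5 ended without PEE-TA replicate 2 (adjusted p from 0.0833 for G0s2 to 0.161 for Atf5) and without PEE-PH-TA replicate 1 (0.054 for G0s2 to 0.101 for Atf5). Without PEE-TA replicate 3 all but G0s2 ended, without PEE-PH-TA replicate 3 Rbp7, Atf5 and Txnrd2, and without PEE-PH-TA replicate 2 Txnrd2 (0.0551). On the mean of all probes of a gene Mcf2l gave -0.11 and did not pass.

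**Figure D2:**
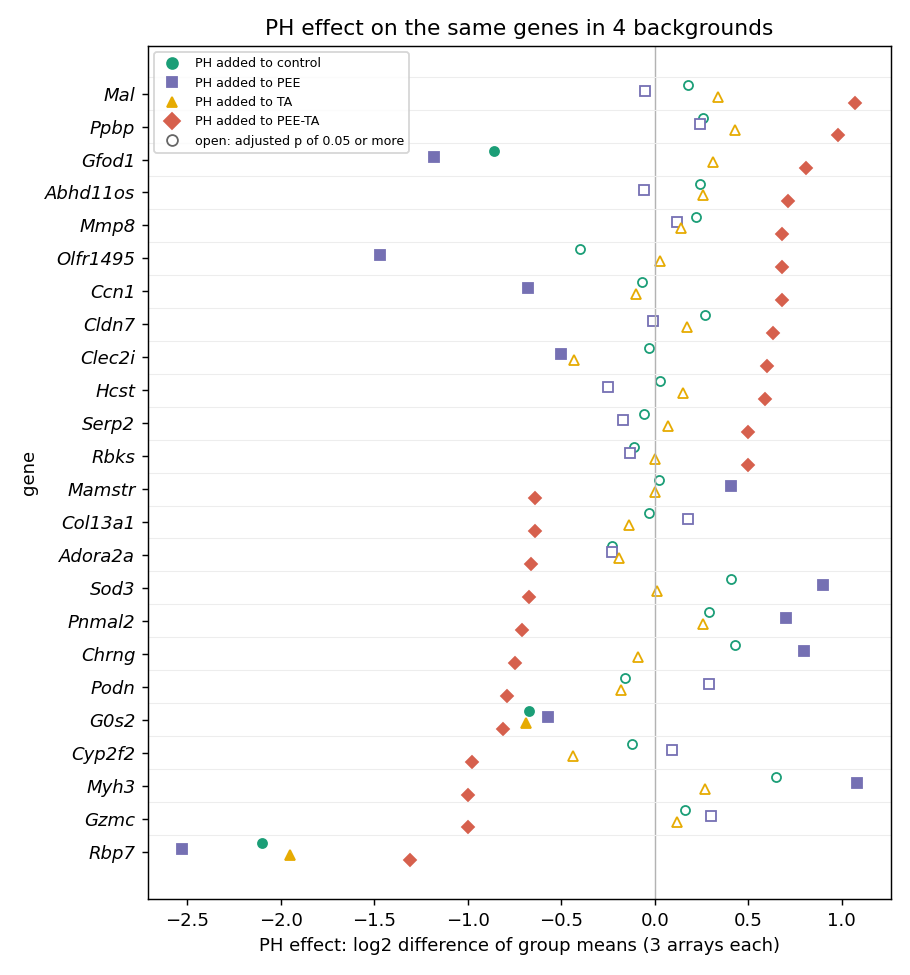
Log2 effect of PH (x axis) on the same 24 genes (y axis) when added to control, PEE, TA or PEE-TA, each from 3 arrays per group; filled symbols passed an adjusted p of 0.05. Rbp7, G0s2 and Adora2a lie left of 0 in every background. Of the 12 rises 2 and of the 12 falls 3 lie on the same side of 0 in PEE and PEE-TA. Gfod1, Ccn1, Olfr1495, Clec2i, Myh3, Chrng, Sod3, Pnmal2 and Mamstr passed in PEE on the opposite side.

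A second group of fallers is known from skeletal muscle: Myh3, the embryonic myosin heavy chain, Chrng, the subunit of the fetal acetylcholine receptor, and Mamstr, a coactivator of the muscle factor MEF2. The bases before the start of Chrng (chr1:87205561-87205810, plus strand, GRCm38.p6) are shown because myogenic factors such as MyoD bind E-boxes. The motif searched was CAGCTG, which reads the same on both strands, and it is in capitals.
Chrng: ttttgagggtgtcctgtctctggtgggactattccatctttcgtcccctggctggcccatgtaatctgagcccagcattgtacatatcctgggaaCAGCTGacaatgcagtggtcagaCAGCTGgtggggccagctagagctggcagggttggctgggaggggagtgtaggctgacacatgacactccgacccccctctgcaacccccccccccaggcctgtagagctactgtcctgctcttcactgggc
The Chrng window held 2 matches, 155 and 132 bases before the start, and those of Myh3 and Mamstr held 0. Of all promoters 13.0% held at least 1. The 3 genes were chosen for the search after their values were seen.

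Myh3 was -0.89, -0.32 and -0.51 without PH and -1.36, -1.82 and -1.53 with it, a difference of -1.0 ± 0.20 (limma, adjusted p = 0.0414). Chrng was -0.30, -0.08 and -0.01 against -0.73, -0.86 and -1.05, a difference of -0.75 ± 0.14 (0.0303), and Mamstr differed by -0.64 ± 0.12 (0.0301), or by -0.21 without a call with normexp background, where Myh3 gave -0.59. The groups did not overlap in any of the 3. Of 27 skeletal muscle markers 26 were lower with PH, but Myh3 was the one to pass, and the list median was -0.36 against 0.04 over all genes. The median was -0.13 on slide 1, -0.06 on slide 2 and -1.01 on slide 3, and the summed level of these markers ran from 122 to 215 without PH and from 115 to 164 with it. How much muscle adhered to each sample was not tested, and in whole follicles fewer cells of a type and less RNA per cell cannot be told apart. In PEE alone PH went the other way: 13 of the 27 rose and 0 fell (12.9% of all genes rose there and 33.5% passed). The PH effect was lower in PEE-TA than in PEE for 13 of the 27, where 9.06% of all genes were. Over all genes this difference passed for 71 with array signal as a covariate, against 6063 without it. In PEE Myh3 was up by 1.08 (limma, adjusted p = 0.000505) and Chrng by 0.80 (0.000384). Each PEE-TA call of these 3 ended without any 1 of 5 arrays, PEE-TA replicate 1 being the exception, with an adjusted p of up to 0.227.

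Matrix and surface genes among the 12 largest falls were the proteoglycan Podn (-0.79 ± 0.12, limma, adjusted p = 0.0122), the extracellular superoxide dismutase Sod3 (-0.67 ± 0.13, 0.0324), the transmembrane collagen Col13a1 (-0.64 ± 0.13, 0.0458) and the adenosine receptor Adora2a (-0.66 ± 0.11, 0.0172). Sod3 was 2.69, 2.86 and 3.1 without PH and 2.17, 2.20 and 2.25 with it. Podn was -0.19, 0.08 and 0.29 against -0.53, -0.80 and -0.85. Neither gene overlapped between the groups. The granzyme Gzmc (-1.0 ± 0.20, 0.0458), the cytochrome Cyp2f2 (-0.98 ± 0.19, 0.0414), Pnmal2 (-0.71 ± 0.13, 0.0301) and, outside the 12 and named after its values were seen, the endopeptidase Ecel1 (-0.63 ± 0.10, 0.0172) complete the 15 fallers. Cyp2f2 was the one of 17 xenobiotic genes to pass. With normexp background the differences were -0.32 for Adora2a, -0.36 for Col13a1, -0.48 for Cyp2f2 and -0.25 for Gzmc, and on the mean of its probes Ecel1 gave -0.37. Other probes of Col13a1 gave -1.19 ± 0.46 and -0.02 ± 0.16 and did not pass (limma over probes, adjusted p 0.306 and 0.968). Calls of all 12 ended without at least 1 array. Without PEE-TA replicate 2 none of the 12 passed (adjusted p from 0.0833 to 0.227), without PEE-TA replicate 3 1 did and without PEE-TA replicate 1 11 did. Without PEE-PH-TA replicates 1, 2 and 3 there were 1, 4 and 1.

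On a list of 23 collagens, of fibrils, basement membranes and other kinds, 0 passed the test; Col13a1, which passed, is not on that list. Their median was -0.44 against 0.04 over all genes. Of the 23, 22 were lower, and in 15 the arrays did not overlap, where 5.36% of all genes were separate in that direction. The lowest adjusted p was 0.0624, for the basement membrane chain Col4a1 (-0.54 ± 0.12). Col16a1 (-0.79 ± 0.18, limma, adjusted p = 0.0753), the fibril chains Col1a1 (-0.74 ± 0.23, 0.168), Col1a2 (-0.71 ± 0.19, 0.116) and Col3a1 (-0.47 ± 0.11, 0.076) and the microfibril chain Col6a1 (-0.63 ± 0.14, 0.076) did not pass either; these 6 were picked from the list after their values were seen. The median was -0.20 on slide 1, -0.52 on slide 2 and -0.45 on slide 3, and 17 of the 23 were lower on every slide. In PEE alone PH gave a median of 0.32, and the PH effect on 12 collagens was lower in PEE-TA than in PEE by the test of the difference, as it was for 9.06% of all genes. Over all genes this difference passed for 71 with array signal as a covariate, against 6063 without it.

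**Figure D3:**
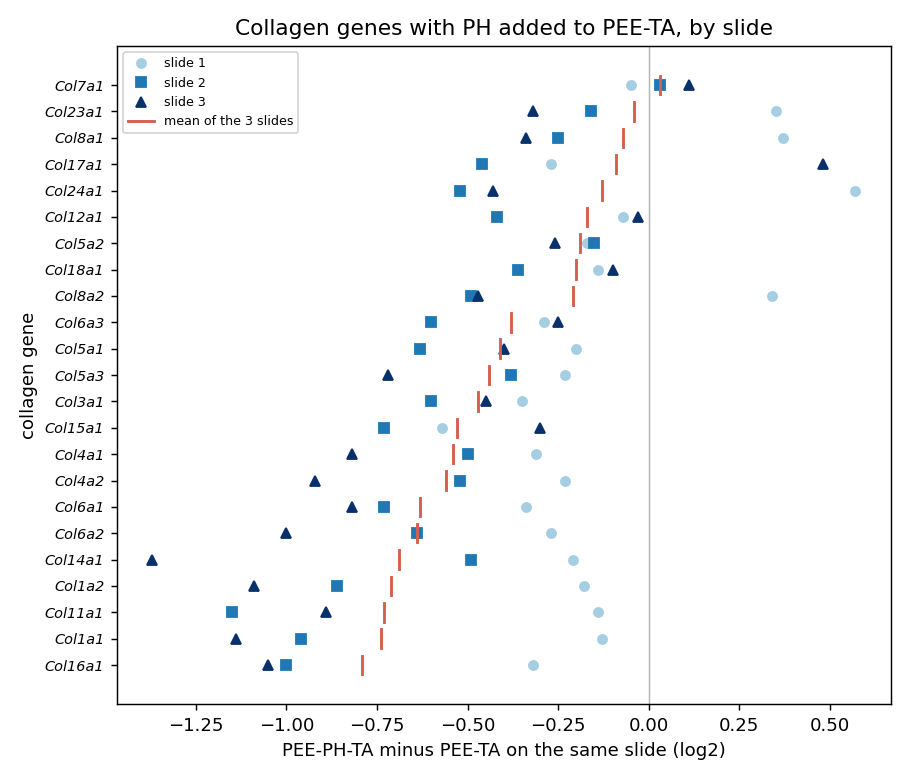
Log2 difference of PEE-PH-TA minus PEE-TA on each of the 3 slides (x axis, blue symbols) for 23 collagen genes (y axis), with their mean as a red bar. Points lie left of 0 for 19 genes on slide 1, 22 on slide 2 and 21 on slide 3; Col7a1 has the one mean above 0.

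Of 17 blood endothelium markers 15 were lower and 0 passed. In 5 of the 15 the arrays did not overlap, where 5.36% of all genes were separate and lower. The 17 markers had a median of -0.33 and medians by slide of -0.07, -0.30 and -0.55. Their summed level was 73.9 to 87.4 without PH and 68.3 to 80.5 with it. Kdr, the main signalling receptor for VEGF-A, was 0.14, 0.40 and 0.59 against -0.20, -0.05 and -0.28. Its groups did not overlap, and its difference of -0.55 ± 0.13 missed the threshold (limma, adjusted p = 0.076); it passed without PEE-TA replicate 1 (0.0245). Of the 10 VEGF family genes 0 passed. The ligands Vegfa (-0.02 ± 0.16), Vegfb (0.00), Vegfc (-0.10), Vegfd (0.00) and Pgf (-0.26 ± 0.14, 0.439), and the receptors Flt1 (-0.19 ± 0.15, 0.604), Flt4 (0.03), Nrp1 (-0.22) and Nrp2 (0.16) had differences between -0.26 and 0.16 on the brightest probe of each. Other probes of these genes ran from -0.47 ± 0.17 for Nrp2 to 0.32 ± 0.36 for Nrp1, and none passed. For Nrp1 and Nrp2 the sign depended on the probe. The PH effect was lower in PEE-TA than in PEE for Pgf by 0.70 (adjusted p of the difference 0.0143, difference -0.70) and for Flt1 by 0.60 (0.0404, difference -0.60). Over all genes this difference passed for 71 with array signal as a covariate, against 6063 without it.

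The genes named here that handle vitamin B6 did not pass. Pyridoxal kinase Pdxk differed by -0.08 ± 0.07, the phosphatase Pdxp by -0.05 ± 0.08, the cofactor-binding protein Plpbp by 0.11 ± 0.06 and the alkaline phosphatase Alpl by -0.01 ± 0.16 (limma, lowest adjusted p 0.484). Of 41 genes of B6 salvage and of enzymes that use the cofactor 0 passed, with a median of 0.00. The lowest adjusted p was 0.0753, for Alas2 (named after its values were seen), the erythroid enzyme of haem synthesis, at 0.66 ± 0.15. In PEE alone PH lowered Alas2 by 1.40 (difference -1.40, limma, adjusted p = 5.46e-06), and the effect in PEE-TA was 2.05 higher (1.17e-05). Over all genes the difference from PEE passed for 71 with array signal as a covariate, against 6063 without it. Alas2 is also 1 of 8 erythroid genes, of which 6 were higher in PEE-PH-TA than in PEE-TA and 0 passed (median 0.26). Of all 22065 genes 13326 were higher there. In PEE 7 of the 8 fell with PH, where 20.6% of all genes fell. The summed level of the 8 was 1870 to 2130 without PH and 2170 to 2570 with it in PEE-TA.

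Whether the effect of PH depended on the background was tested by the difference of 2 effects. The PH effect in PEE-TA differed from that in control for 933 genes (4.23% of those tested), from that in PEE for 6063 (27.5%) and from that in TA for 173 (0.784%). Against control 748 were higher (3.39%) and 185 lower (0.838%). At an unadjusted p under 0.05 the 3 counts would take in 20.5, 39.5 and 21.7% of genes. PH itself passed for 1158 genes in control (5.25%), 7384 in PEE (33.5%) and 917 in TA (4.16%). It lowered 806 in control (3.65%), 4548 in PEE (20.6%) and 393 in TA (1.78%), and raised 352 (1.6%), 2836 (12.9%) and 524 (2.37%). Across genes the effect in PEE-TA correlated with that in control at r = -0.20, with PEE at -0.36 and with TA at -0.13; no array is shared by any of these pairs. Of the 53 called genes 19 passed with PH in PEE in the opposite direction, 14 of them higher in PEE-TA. Gfod1 is one, with -0.86 in control, -1.18 in PEE and 0.31 in TA. Ccn1 is another, with -0.68 in PEE (limma, adjusted p = 0.000146). The 75th percentile signal was 142 to 147 on the PEE arrays and 199 to 217 on the PEE-PH arrays, and with the log2 of this signal as a covariate the difference from PEE passed for 71 genes, that from control for 233 and that from TA for 0. The difference from PEE was higher for 4064 genes and lower for 1999, whereas quantile normalization split it into 2919 and 2756, normexp into 9259 and 2895, and the authors' values into 2751 and 2507. The split of that from control was 464 and 228 after quantile normalization, with 380 and 171 on the authors' values. Without replicate 2 in every group the difference from control passed for 0 genes and that from PEE for 1310, and without replicate 1, 2 or 3 that from TA passed for 0.

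The PH effect on hair genes differed between PEE and PEE-TA. In PEE alone PH raised 12 of 16 inner root sheath genes (median 0.70), 11 of 16 shaft keratins (0.89) and 16 of 24 matrix and shaft regulators (0.65, with 1 lower), against 12.9% of all genes. In PEE-TA 0 of these passed, with medians of -0.21, -0.08 (0.02 with array signal as a covariate) and -0.11. The PH effect was lower in PEE-TA than in PEE for 12, 7 and 14 of them by the test of the difference, where 9.06% of all genes were. With array signal as a covariate the difference from PEE passed for 71 of all genes, against 6063 without it. The sheath keratin Krt25 rose by 1.35 in PEE (limma, adjusted p = 1.63e-05) and differed by -0.25 ± 0.16 in PEE-TA, and the vitamin D receptor Vdr rose by 1.08 in PEE (1.09e-05) and differed by -0.13 ± 0.12. Of 34 Wnt pathway genes 16 rose with PH in PEE (median 0.45), and in PEE-TA 0 passed (-0.11) and the effect was lower for 14. Of 30 hypoxia and glycolysis genes 12 rose in PEE (0.33), and in PEE-TA 28 were lower and 0 passed (-0.12). Single genes here and among dividing cells and NRF2 targets were picked after their values were seen. Krt27, a sheath keratin, gave 0.86 and -0.27, and Padi1, a peptidyl arginine deiminase, 0.72 and -0.34.

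**Figure D4:**
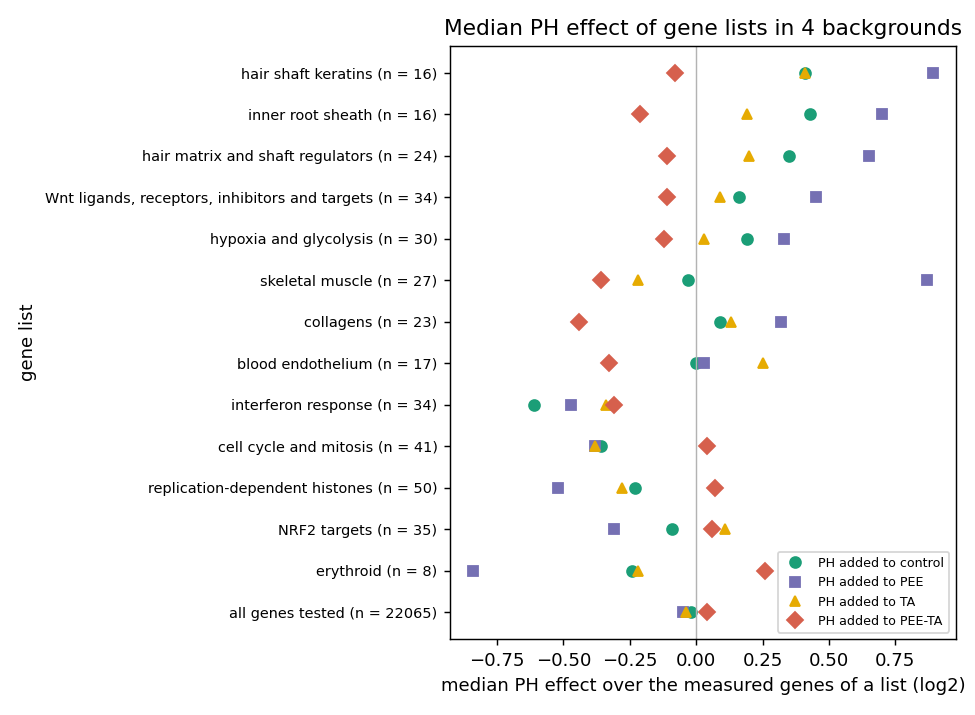
Median log2 effect of PH (x axis) over the measured genes of 13 lists and over all 22065 genes (y axis) when PH was added to control, PEE, TA or PEE-TA (symbols). Hair lists, skeletal muscle and collagens lie above 0 with PEE and below 0 with PEE-TA (shaft keratins at 0.02 with array signal as a covariate), and cell cycle genes lie between -0.38 and -0.36 in the other 3 backgrounds and at 0.04 in PEE-TA.

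The PH effect on genes of dividing cells also differed between backgrounds. PH lowered 31 of 41 cell cycle and mitosis genes in PEE (median -0.38), 17 in control (-0.36) and 21 in TA (-0.38), with 0 rising, where it lowered 20.6, 3.65 and 1.78% of all genes. In PEE-TA 0 of 41 passed and the median was 0.04, that of all genes. The difference passed for 21 of them against PEE and 6 against control, all higher in PEE-TA, where 18.4 and 3.39% of all genes were, and for 0 against TA. Over all genes the differences from PEE and control depended on the fit. They passed for 71 and 233 genes with array signal as a covariate, against 6063 and 933 without it. The difference from control passed for 0 genes without replicate 2 and for 13 without replicate 3. Cdca3, a mitotic entry factor, differed by -0.47 in control, -0.60 in PEE, -0.48 in TA and 0.22 ± 0.12 in PEE-TA. The thymidylate synthase gene Tyms differed by -0.37, -0.51, -0.32 and 0.16 in that order. Of 50 replication-dependent histone genes 35 fell with PH in PEE, and in PEE-TA 44 were higher and 0 passed (median 0.07). Of 35 NRF2 targets, the genes of the oxidative stress response, 18 fell and 2 rose with PH in PEE (median -0.31). In PEE-TA 24 were higher and 0 passed (0.06). There 13326 of all 22065 genes were higher, with a median of 0.04 over all genes. The effect was higher in PEE-TA than in PEE for 18 of the targets, against 18.4% of all genes. The quinone reductase Nqo1 gave -0.54 in PEE and 0.32 ± 0.13 in PEE-TA.

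Transcripts encoded by the mitochondrial genome went in opposite directions in PEE-TA and in the other backgrounds. They were grouped after their values were seen, and since they are cut from long shared precursors they are not independent of each other. Of 10 measured, 9 were higher with PH in PEE-TA and in those 9 the arrays did not overlap, though 0 passed (median 0.43, lowest adjusted p 0.135); 10.2% of all genes were separate and higher. The 9 fell with PH in control (median of the 10 -0.80) and in PEE (-1.53), and 5 fell in TA (-0.49), where 3.65, 20.6 and 1.78% of all genes fell. With array signal as a covariate 9 passed in control, 0 in PEE (lowest adjusted p 0.065) and 0 in TA (0.57), and without replicate 2 the counts were 0 (0.153), 9 and 0. Without replicate 3 they were 2, 9 and 0, and without replicate 1 they were 9, 9 and 0. ND1, a subunit of respiratory complex I, was 4.85, 4.57 and 4.44 without PH and 5.15, 5.19 and 5.06 with it. Its difference of 0.52 ± 0.15 set against -0.94 in control, -1.68 in PEE and -0.54 in TA. The cytochrome oxidase subunit COX1 gave 0.40, -0.86, -1.67 and -0.55 in the same order. By the test of the difference the PH effect was higher in PEE-TA than in control for 9, than in PEE for 9 and than in TA for 8, against 3.39, 18.4 and 0.589% of all genes. The 10th, ND6, is the one protein gene on the light strand of that genome, and it differed by -0.10 in PEE-TA, 0.10 in control, -0.03 in PEE and -0.14 in TA, none passing. With array signal as a covariate the difference passed for 9 against control, 6 against PEE and 0 against TA, and quantile normalization gave 9, 9 and 0, as did the values deposited by the authors. Without replicates 2 and 3 it passed for 0 against control and 9 against PEE, and without replicates 1, 2 or 3 for 0 against TA.

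**Figure D5:**
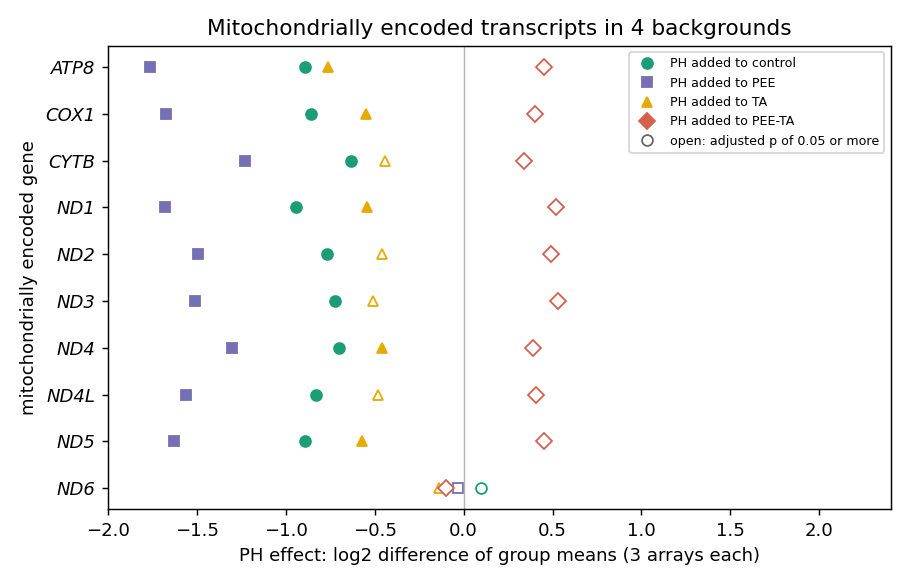
Log2 effect of PH (x axis) on 10 mitochondrially encoded transcripts (y axis) when added to control, PEE, TA or PEE-TA; filled symbols passed an adjusted p of 0.05. All but ND6 lie below 0 in 3 backgrounds and between 0.34 and 0.53 in PEE-TA.

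Genes with the largest differences of the PH effect were often dim. Against control the histone gene H2bc23 (2.20 ± 0.47, limma, adjusted p = 0.0191), L1td1 (1.84), the protocadherin Pcdhgb1 (1.80), Mettl21c and Zfhx2os had a higher effect in PEE-TA, and all 5 were well above background on 11 to 19 of 24 arrays. Mettl21c and Zfhx2os were not well above background on any PEE-TA array, nor Spon1 on any PEE-PH-TA array, so no size is given for them. The cartilage matrix genes Comp (-2.26 ± 0.55, 0.0314) and Crtac1 (-2.03 ± 0.41, 0.015), measured on all 24, the germline gene Piwil2 (-2.06), the matrix gene Spon1 and the substance P precursor Tac1 (-1.81) had a lower one. Against PEE the effect was higher for Agbl4 (2.97), Cox7b2 (2.97), H2bc23 (2.96) and the olfactory receptors Olfr170 (3.01) and Olfr406 (3.23), and lower for Comp (-2.65 ± 0.55, 0.00216), the mast cell protease Mcpt1 (-3.59), the reductase Akr1b7 (-2.48), and the IGF carrier subunit Igfals (-2.67). Gpr17 also passed as lower but was not well above background on any of the 6 arrays with PEE and TA, so no size is given. Against TA, ATP8 (1.21 ± 0.25, 0.0412), the metalloproteinases Mmp10 (1.45), Mmp1b (1.15) and Mmp9 (1.16) and the serpin Serpinb2 (1.18) had a higher effect, and Galnt15 (-1.18), Mrgprf (-1.10), Myh3 (-1.27), the nuclear receptor Nr5a2 (-1.19) and Gc (-2.71) a lower one. In PEE-TA itself the difference with PH was 0.73 for Serpinb2 (0.0821) and -0.17 for Mmp9 (0.701), and of the 30 differences listed Myh3 was the one whose gene passed there. With normexp background the differences of Spon1, Gpr17, Igfals, Akr1b7 and Gc turned positive.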

How the data were processed

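RNA from 24 vibrissa follicle samples was hybridised to one-colour Agilent mouse arrays, 3 per group in 8 groups. Intensity is the deposited processed signal, background-subtracted by Agilent Feature Extraction 12.0.3.1 per the file headers. The labels name a biotin label, whereas the scans hold a green channel. The authors' deposited value table is log2 with column medians of 3.74 to 3.81; all 24 columns correlated best with their own array (r at least 0.996), and its further scaling is not given in the sources used here.

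Of 59305 spots without controls, 41 non-uniform and 2347 population outlier spots were set to missing and 0 were saturated. Spots of a probe were averaged. Log2 intensity minus the array's 75th percentile was used. Probes entered the test when all arrays of some group measured them well above background (33365 of 56605 probes; 25 left out for a missing spot), and a gene took its brightest probe, giving 22065 genes, 15509 with a symbol. Symbols of 35405 probes were matched by accession to RefSeq, which changed 1. Probe coordinates are mm9; promoter sequences are RefSeq, GRCm38.p6.

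One mean per group was fitted with limma 3.58.1 (R 4.3.3) over all 24 arrays (16 residual degrees of freedom, prior 2.19), with Benjamini-Hochberg adjustment over genes and a threshold of 0.05. Differences of the PH effect are contrasts of the same fit, which was tested on simulated data. Figures used matplotlib 3.10.9 (Python 3.11.15). Replicates are independent experiments per the labels. Each replicate number is also 1 slide. Same-numbered deviations of the 2 groups correlated at 0.03, -0.01 and 0.04, which does not settle whether the numbers pair samples. The main fit had no block, and a fit with the replicate as a block is given as an alternative (84 genes passed). Differences by slide are shown as description. Named genes are the 12 largest changes in each direction, up to 3 called per direction in each of 46 gene lists, up to 5 per direction for each difference, and the VEGF and vitamin B6 genes; others are said to be named after their values were seen. An item that this rule names is not reported here. Members and lists were chosen with earlier results of these data known. Alternatives covered scaling, background, filter, probe rule, block, prior, a signal covariate and left-out arrays; those for the mitochondrial transcripts were chosen after seeing the data.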

Additional observations from a re-analysis of the deposited data

Results flagged for a closer look

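By the interaction contrast in limma, the effect of adding PH to PEE-TA differed at an adjusted p under 0.05 from the effect of adding it to control for 933 genes, from that of adding it to PEE for 6063, and from that of adding it to TA for 173. Each of the 3 stands out because 2 effects of the same compound differed between backgrounds by a test of the difference itself. With array signal as a covariate the counts were 233, 71 and 0. Without replicate 2 they were 0, 1310 and 0, and the difference from TA also fell to 0 without replicate 1, without replicate 3 and without the filter on dim probes, to 13 with quantile normalization and to 10 on the authors' deposited values. The part of array signal in these differences was not tested further.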

How the results depend on the processing

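For PH added to PEE-TA the 53 calls became 22 in the authors' value table, 24 without the filter on dim probes, 96 with a trended and robust prior, 35 with array signal as a covariate and 0 with only the arrays compared; leaving out arrays gave 0 to 284. With the replicate block there were 84, of which 51 were among the 53. The main fit had no block, and the low correlation of same-numbered deviations in 2 groups does not settle whether the numbers pair samples. Quantile normalization gave 40, normexp 44 and the mean of all probes 50. The 933 differences from control became 551 in the authors' table, 402 without the filter and 233 with the covariate, and 0 to 863 with a replicate left out. The 6063 differences from PEE became 12154 with normexp, 13053 without the filter (10912 higher and 2141 lower) and 71 with the covariate, and 1310 to 4609 with a replicate left out. The 173 differences from TA became 13 with quantile normalization, 4946 with normexp, 10 in the authors' table, 0 without the filter, 68 with the mean of all probes, 591 with the replicate block, 668 with the trended prior and 0 with the covariate, and 0 with any replicate left out. The 5 list members called became 1 with quantile normalization, 0 in the authors' table, 0 without the filter, 11 with the trended prior, 3 with the covariate and 0 with only the arrays compared, and 0 to 20 with arrays left out. With normexp 5 dim genes changed sign: Spon1 to 0.01 (control), Gpr17 to 0.31, Igfals to 0.01 and Akr1b7 to 0.07 (PEE) and Gc to 0.05 (TA). The median over all genes was 0.06, 0.09 and 0.07 for the differences from control, PEE and TA, and 0.07, 0.17 and 0.13 with normexp and 0.14, 0.34 and 0.19 without the filter. Over named genes and settings 817 values kept direction and side of the threshold, 714 lost the call in the same direction, 16 moved and 2 gained a call. The causes were not tested. Dim genes are limited by signal near background.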

Other observations

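In control, PEE and TA alike 137 genes fell with PH, with medians of -0.44, -0.60 and -0.45. In PEE-TA their median was 0.06, and 47 were lower, as were 8739 of all 22065 genes. In 10 the arrays did not overlap and were lower, against 5.36% of all genes. In the same 3 backgrounds 109 genes rose, with medians of 0.41, 0.46 and 0.44. In PEE-TA their median was 0.07, and 74 were higher, as were 13326 of all 22065 genes. In 32 the arrays did not overlap and were higher, against 10.2% of all genes. These sets were formed after the data were seen and no test was run on them. Of 34 interferon response genes 0 passed with PH in control, TA or PEE-TA. In PEE 5 of them fell, where 20.6% of all genes fell. In PEE-TA 31 were lower. The medians were -0.61 in control, -0.47 in PEE, -0.34 in TA and -0.31 in PEE-TA. By slide the PEE-TA median was -0.62, -0.31 and -0.03.

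Of the 38 risers 11 have no gene symbol here. The predicted gene Gm12052, named after its values were seen, is beside Txnrd2 the other gene that passed as higher in all 4 backgrounds. It rose by 1.48 ± 0.23 (limma, adjusted p = 0.0122) and also with PH in control (0.96), PEE (0.64) and TA (1.34). With normexp background the rise in PEE-TA was 0.39. Among the 53 called genes 4 pairs lay within 100 kb of each other in mm9, each pair changing in 1 direction; the named pair of fallers is Ecel1 and Chrng, 63.9 kb apart. Cyp26a1, which degrades retinoic acid and was picked after its values were seen, differed by 1.41 ± 0.40 in PEE-TA and did not pass (limma, adjusted p = 0.135).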
